A study of Homo sapiens with 6 samples.

Results

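The genes described here are 50 genes of the unfolded protein response and of the response to amino acid shortage, chosen by name as well-known members of these pathways. A gene was read through the array probe annotated with its symbol, and where it had several probes through the one with the highest mean raw signal. Of the 50 genes, 49 had a named probe, among 18852 genes named on the array; HERPUD1 was not analysed here. The signal passed the detection filter for 40 genes, and all 40 were detected on every array of both groups, so none entered the tests through 1 group alone.

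The cells were HEK293, a widely used cell line of human embryonic kidney origin. One group was cultured for 3 days in medium supplemented with N6,2'-O-dibutyryl-cAMP, a cAMP analog that crosses membranes, and with all-trans retinoic acid (tRA), the active form of vitamin A (together tRA/cAMP, 3 samples). The other was cultured for 3 days in complete medium without them (control, 3 samples). No dose is given in the labels, both agents were given together, and the cells were of 1 line. Total RNA of each sample was hybridized to 1 Illumina bead array, and nothing in the labels ties the 3 samples of a group to separate cultures. The p-values therefore rest on a spread between samples that may be technical. In bulk RNA, fewer cells of a kind and less RNA per cell cannot be told apart.

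Cells with too many unfolded proteins in the endoplasmic reticulum (ER) signal through the membrane sensors IRE1 (gene ERN1), PERK (EIF2AK3) and ATF6. IRE1 splices the mRNA of the transcription factor XBP1, ATF6 is cut to release a transcription factor, and both raise chaperones and degradation factors of the ER. PERK, like GCN2 (EIF2AK4), which senses uncharged tRNA, phosphorylates the initiation factor eIF2, which lowers general translation and raises that of ATF4, an activator of amino acid genes. Splicing, cleavage and translation were not measured by these arrays, which read mRNA levels.

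Between 14792 and 16103 of 48803 probes were detected per array. Pearson correlations of the log2 intensities were 0.986 to 0.990 for pairs of arrays within a group and 0.976 to 0.981 for pairs across groups. The response to the agents was present: CYP26A1, which degrades retinoic acid, had a log2 intensity of 13.92 ± 0.09 in tRA/cAMP cells and 8.26 ± 0.18 in control cells (SD, n = 3 each; limma, adjusted p = 5.8e-09), and CGA, a hormone subunit gene not detected on any control array, was at least 49.3-fold higher. Of 9942 genes tested, 108 rose and 144 fell (limma, Benjamini-Hochberg adjusted p under 0.05), and without normalization between arrays 43 rose and 120 fell (26.4% of calls higher, against 42.9%). Of 10 marker genes of HEK293 cells, 8 were detected on all arrays, among them VIM, KRT8 and LHX1, while PAX2 and NEFM were detected on none. EYA1, another of the 10, fell. The brighter VIM and CDH2 differed by -0.50 and -0.53 and were not called (limma, adjusted p = 0.0565 and 0.0741). Of the 8 tested, 5 lay below 0 and 3 above. The summed raw signal of the list was 43980 to 53609 in tRA/cAMP cells and 67328 to 72232 in control cells. Of 7 fibroblast markers, COL3A1, LUM, S100A4 and TAGLN fell, and DCN and PDGFRB were detected on no array. LUM was detected on 1 and TAGLN on 0 tRA/cAMP arrays, so both passed the filter through the control group alone. The size of their fall rests in part on values below detection. COL1A1, detected on all arrays, differed by -0.15 with overlapping groups and was not called. The summed raw signal of this list was 3906 to 5547 in tRA/cAMP cells and 9561 to 12770 in control cells. Of 5 blood cell markers with a probe, CD14 alone was detected on all arrays of 1 group, and the list summed to 1357 to 1554 in tRA/cAMP cells and 1279 to 1538 in control cells. VWF fell among 5 endothelial markers, which summed to 1147 to 1566 in tRA/cAMP cells and 1632 to 1740 in control cells. VWF was detected on all control arrays but on only 1 tRA/cAMP array, so it too passed the filter through the control group alone. LAMB3 and SFN fell among 6 squamous and epithelial markers, which summed to 1448 to 1617 in tRA/cAMP cells and 1797 to 2151 in control cells. Both LAMB3 and SFN were detected on all control arrays and on 0 tRA/cAMP arrays, with the same limit. The part of these markers in the results below was not tested.

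None of the 40 stress genes tested passed the threshold, against 2.53% of all tested genes. At that share 40 genes hold few calls or none, so this count does not set the stress genes apart. The largest difference in size among them was that of DDIT4, at -0.44 on the log2 scale, or 1.36-fold lower, and 727 of the 9942 genes (7.31%) differed by more. The median difference of the 40 genes was 0.04 on the log2 scale, against 0.0018 for all tested genes, and the median size of the difference, regardless of sign, was 0.13 in both sets. Signs were mixed, with 25 of the 40 genes above 0 (62.5%, against 50.4% of all tested genes) and 15 below. The curves of difference sizes show the genes beside the whole array.

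**Figure D1:**
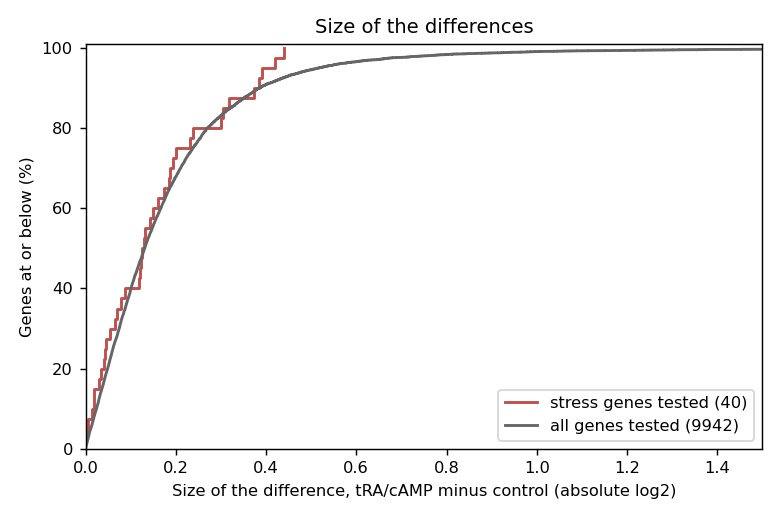
Share of genes (y axis, percent) whose difference between tRA/cAMP and control arrays was at or below the size on the x axis (absolute log2 difference). The curve of the 40 stress genes ends at 0.44, while the curve of all 9942 genes, which has its median at the same 0.13, runs beyond the right edge at 1.5.

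The intervals show how large a difference between these arrays could have been missed. Their width rests on the same spread between samples, which may be technical, so they do not bound the change over separate cultures. For 33 of the 40 genes (82.5%) the 95% interval of the difference lay within a 1.5-fold change in either direction, against 75.5% of all tested genes. For all 40 it lay within a 2-fold change, against 96.6% of all tested genes. The 7 genes whose interval reached past 1.5-fold were ATF3, DDIT4 and HYOU1 on the lower side and DDIT3, DNAJB9, SDF2L1 and XBP1 on the higher side. The plot of differences by role gives every interval.

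**Figure D2:**
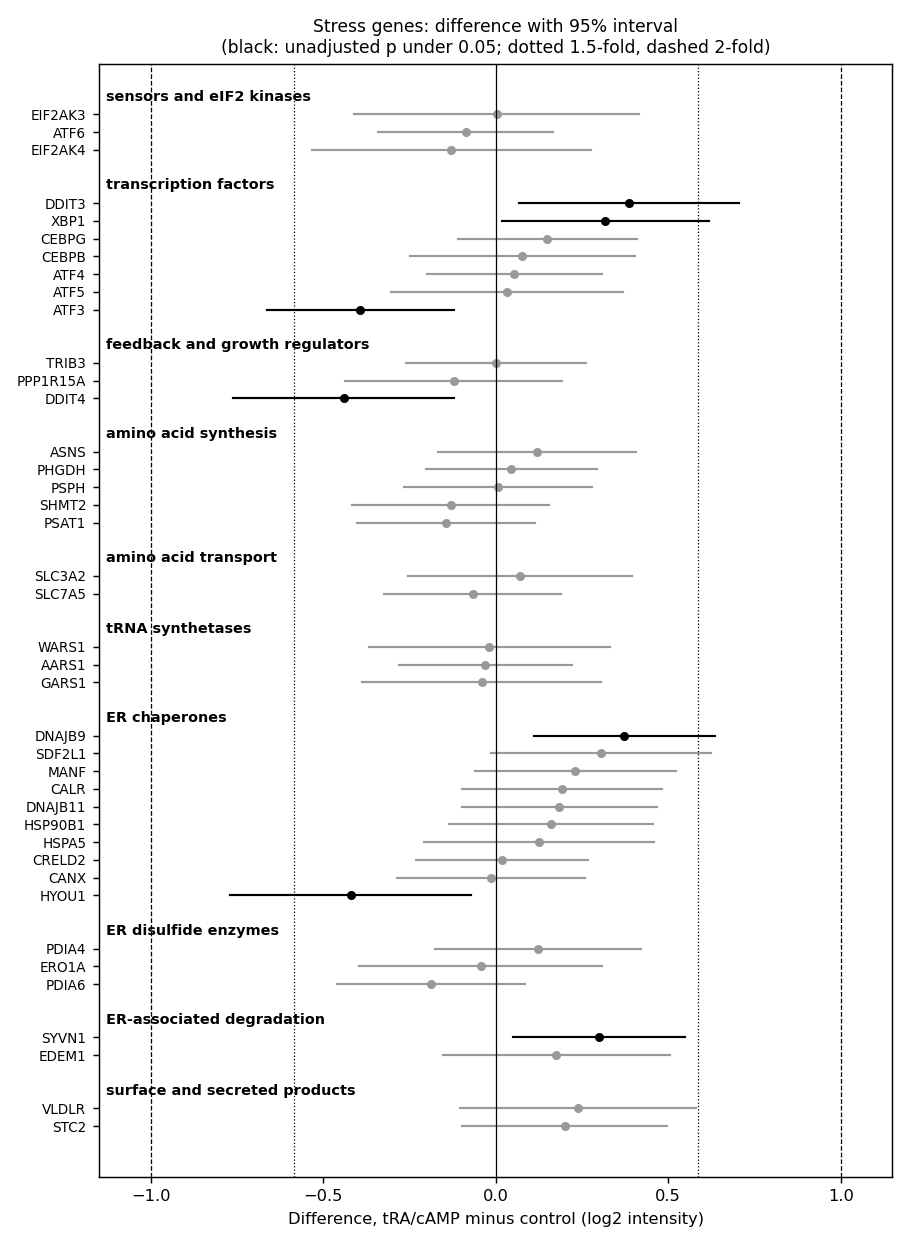
Difference in log2 intensity, tRA/cAMP minus control (x axis), for the 40 tested stress genes grouped by role (y axis), with points for the fitted difference and lines for its 95% interval. Black marks the 7 genes with an unadjusted p under 0.05, dotted lines a 1.5-fold and dashed lines a 2-fold change. All intervals end inside the dashed lines.

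An unadjusted p under 0.05 was reached by 7 of the 40 genes (17.5%), against 14.2% of all tested genes. Of these, 4 were higher (10.0%, against 6.86% of all tested genes) and 3 lower (7.5%, against 7.36%). The 3 arrays of each group did not overlap for 9 genes (22.5%, against 18.9%), with 5 of them higher (against 9.2%) and 4 lower (against 9.71%). These shares were near those of the array as a whole, so the values of the 7 genes below are given as a description of the genes with the smallest p and not as changes.

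**Figure D3:**
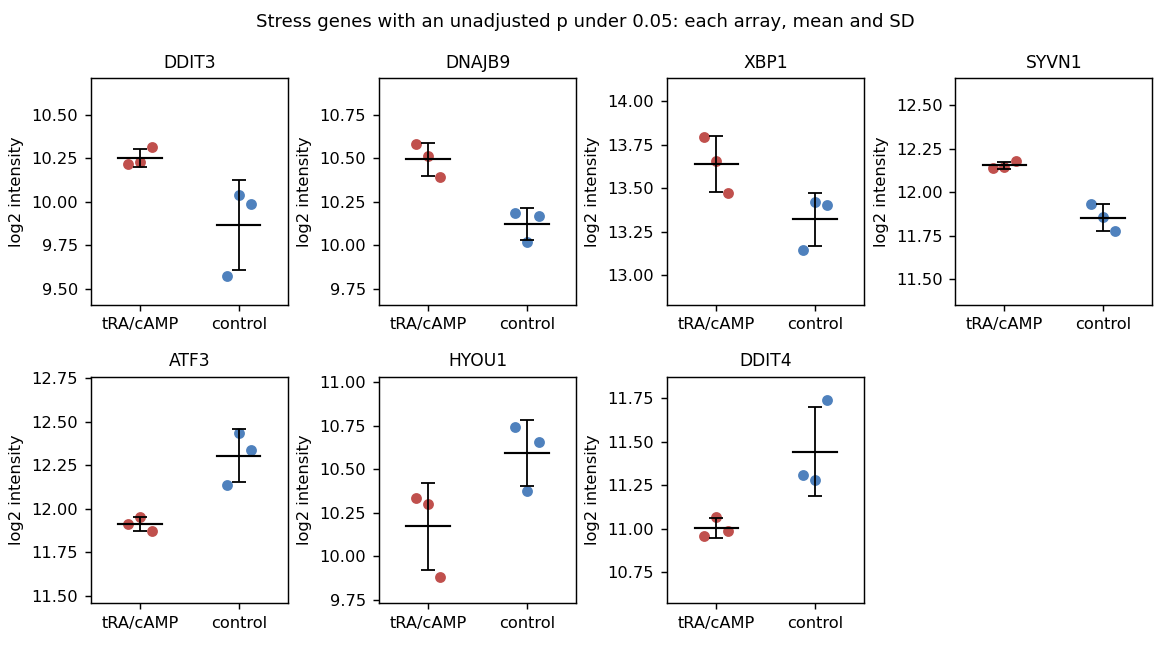
Log2 intensity (y axis) on each tRA/cAMP array (red) and each control array (blue) of the 7 stress genes with an unadjusted p under 0.05, with the group mean (bar) and SD (whiskers). Every panel spans the same range of 1.3 log2 units. The groups stand apart in all 7 panels, by as little as 0.04 for HYOU1.

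Among the sensors, EIF2AK3, which encodes PERK, had log2 intensities of 8.96, 8.45 and 8.38 on the tRA/cAMP arrays and 8.86, 8.31 and 8.60 on the control arrays. EIF2AK4, which encodes GCN2, had 10.35, 10.11 and 10.88 on the tRA/cAMP arrays and 10.56, 10.69 and 10.48 on the control arrays. ATF6 had 11.79, 11.91 and 11.83 on the tRA/cAMP arrays and 11.84, 11.99 and 11.96 on the control arrays. The groups overlapped for each of these sensors. Their differences were 0.0030 for EIF2AK3, -0.13 for EIF2AK4 and -0.09 for ATF6 on the log2 scale, and the intervals ran from -0.41 to 0.42 for EIF2AK3 and from -0.53 to 0.28 for EIF2AK4. ERN1, which encodes IRE1, was detected on no array.

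Of 8 transcription factors, 7 were tested, 6 with a difference above 0 and 1 below; without normalization between arrays, where the median of all genes was -0.10, 3 were above 0. DDIT3, which encodes the pro-death factor CHOP, had log2 intensities of 10.21, 10.23 and 10.31 on the tRA/cAMP arrays and 9.57, 10.04 and 9.99 on the control arrays. All 3 tRA/cAMP arrays lay above the control arrays, among which replicate 1 was the lowest, and the difference was 0.39 with a standard error of 0.14 (limma, adjusted p = 0.241). Without control replicate 1 the difference was 0.24. XBP1, the factor whose mRNA IRE1 splices, had 13.80, 13.66 and 13.47 on the tRA/cAMP arrays and 13.15, 13.42 and 13.40 on the control arrays. Its groups did not overlap, the difference was 0.32 with a standard error of 0.13 (limma, adjusted p = 0.320), and its other detected probe differed by 0.10. These values do not separate spliced from unspliced XBP1 mRNA.

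ATF3, a factor induced by stress and itself a repressor, ran the other way from DDIT3. Its log2 intensities were 11.91, 11.95 and 11.87 on the tRA/cAMP arrays and 12.14, 12.44 and 12.34 on the control arrays, a difference of -0.39 with a standard error of 0.12 (limma, adjusted p = 0.158), the smallest adjusted p of the 40 genes. Its other probes, a pair, were detected on no array. ATF4, the activator downstream of eIF2 phosphorylation, had 14.95, 14.94 and 15.05 on the tRA/cAMP arrays and 15.002, 14.85 and 14.93 on the control arrays. The groups of ATF4 overlapped, with a difference of 0.05 and an interval from -0.20 to 0.31. A second ATF4 probe, detected on all arrays, differed by -0.08. The remaining ATF4 probe, a dim one, went apart from both. It was detected on all 3 tRA/cAMP arrays and on 0 control arrays, so it passed the filter through the tRA/cAMP group alone. Its mean log2 intensities were 7.78 in tRA/cAMP cells and 7.04 in control cells, and the detection limit bounds it at 1.22-fold higher or more. A fit of its full difference gave no call (limma over all 14923 probes that passed, adjusted p = 0.0849). That fit used control values below detection, so it is no support for a change. ATF5 (0.03), CEBPB (0.08) and CEBPG (0.15), factors of the same family that pair with ATF4 or act beside it, overlapped between groups.

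The feedback regulators close the response. PPP1R15A, also called GADD34, is a subunit that directs a phosphatase to eIF2, and TRIB3 is a pseudokinase that binds ATF4. PPP1R15A had log2 intensities of 12.44, 12.69 and 12.72 on the tRA/cAMP arrays and 12.50, 12.85 and 12.86 on the control arrays, a difference of -0.12. TRIB3 had 10.56, 10.58 and 10.58 on the tRA/cAMP arrays and 10.46, 10.71 and 10.54 on the control arrays, a difference of 0.0019 with an interval from -0.26 to 0.26. Both overlapped between groups. DDIT4, also called REDD1, an inhibitor of the growth kinase complex mTORC1, had 10.96, 11.07 and 10.98 on the tRA/cAMP arrays and 11.31, 11.28 and 11.74 on the control arrays. All 3 tRA/cAMP arrays lay below the control arrays, among which replicate 3 was the highest, and the difference was -0.44 with a standard error of 0.14 (limma, adjusted p = 0.179). Without control replicate 3 it was -0.29.

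None of the 5 enzymes of amino acid synthesis, all targets of ATF4, differed by more than 0.14 in size. ASNS, which makes asparagine and is a classic readout of amino acid shortage, had log2 intensities of 12.33, 12.23 and 12.36 on the tRA/cAMP arrays and 12.35, 11.99 and 12.21 on the control arrays, a difference of 0.12 with an interval from -0.17 to 0.41. PHGDH, PSAT1 and PSPH are the successive enzymes of serine synthesis, and SHMT2 turns serine into glycine in mitochondria. Their differences were 0.05 for PHGDH, -0.14 for PSAT1, 0.0058 for PSPH and -0.13 for SHMT2. PSAT1 was the only one whose groups did not overlap, with 11.46, 11.49 and 11.29 on the tRA/cAMP arrays and 11.54, 11.62 and 11.52 on the control arrays (limma, adjusted p = 0.653).

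The transporter genes SLC3A2 and SLC7A5 encode the heavy and light chains of a carrier of large neutral amino acids, and differed by 0.07 and -0.07. SLC7A11, the light chain of the cystine transporter, was detected on no array. The tRNA synthetases AARS1, GARS1 and WARS1, which load alanine, glycine and tryptophan, differed by -0.03, -0.04 and -0.02. All these groups overlapped. VLDLR, a lipoprotein receptor raised by PERK signalling, had log2 intensities of 10.40, 10.24 and 10.12 on the tRA/cAMP arrays and 10.20, 9.71 and 10.12 on the control arrays, a difference of 0.24. STC2, a secreted glycoprotein, differed by 0.20. Neither was past the threshold (limma, adjusted p = 0.547 for VLDLR and 0.565 for STC2).

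The ER chaperones had mostly positive differences, none of them called: 8 of the 10 tested lay above 0 (80%, against 50.4% of all tested genes), with a median of 0.17. Without normalization between arrays 7 lay above 0, with a median of 0.09 against -0.10 for all genes. The median deviation of the 10 genes from their own means over all arrays was taken on each array. It was -0.02, 0.08 and 0.07 on the tRA/cAMP arrays and -0.09, -0.08 and -0.06 on the control arrays. That of all tested genes was at most 0.0057 in size, but quantile normalization holds it near 0, so it is no yardstick. The 3 tested feedback regulators deviated by more, with -0.23, 0.0074 and 0.0074 on the tRA/cAMP arrays and -0.11, 0.14 and 0.19 on the control arrays. A tendency of stress genes to the higher side had been seen in these data before the members were chosen, so it is no independent support. HSPA5, which encodes BiP, the main chaperone of the ER and the standard marker of the unfolded protein response, had log2 intensities of 11.52, 11.75 and 11.86 on the tRA/cAMP arrays and 11.35, 11.81 and 11.60 on the control arrays. Its groups overlapped, and its difference was 0.13 with an interval from -0.21 to 0.46. HSP90B1, which encodes GRP94, had 15.43, 15.26 and 15.42 on the tRA/cAMP arrays and 15.01, 15.40 and 15.22 on the control arrays, a difference of 0.16.

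The cofactors of BiP went both ways. DNAJB9, also called ERdj4, a J-domain partner of BiP and a target of XBP1, had log2 intensities of 10.58, 10.51 and 10.39 on the tRA/cAMP arrays and 10.18, 10.02 and 10.17 on the control arrays. All 3 tRA/cAMP arrays lay above the control arrays, and the difference was 0.37 with a standard error of 0.12 (limma, adjusted p = 0.166). HYOU1, a nucleotide exchange factor of BiP, had 10.33, 10.30 and 9.88 on the tRA/cAMP arrays and 10.74, 10.38 and 10.65 on the control arrays. The tRA/cAMP arrays of HYOU1 lay below the control arrays, with a difference of -0.42 and a standard error of 0.16 (limma, adjusted p = 0.242), and its other detected probe differed by -0.25. SDF2L1, part of the same chaperone complex, had 12.57, 12.60 and 13.03 on the tRA/cAMP arrays and 12.45, 12.40 and 12.45 on the control arrays, a difference of 0.31 (limma, adjusted p = 0.377) with replicate 3 the highest of the tRA/cAMP arrays. DNAJB11, a further J-domain partner, differed by 0.18. MANF, a small secreted survival factor, had 13.93, 14.14 and 14.32 on the tRA/cAMP arrays and 13.96, 13.88 and 13.85 on the control arrays, a difference of 0.23. CRELD2 (0.02), a secreted ER stress gene, and the lectin chaperones CALR (0.19) and CANX (-0.01) overlapped between groups.

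The disulfide enzymes of the ER overlapped between groups. PDIA4 differed by 0.12 and PDIA6 by -0.19, and ERO1A, the oxidase that recharges them, by -0.04. For ER-associated degradation, which returns misfolded proteins to the cytosol, SYVN1 and EDEM1 were measured. SYVN1, the ubiquitin ligase HRD1, had log2 intensities of 12.14, 12.15 and 12.18 on the tRA/cAMP arrays and 11.93, 11.86 and 11.77 on the control arrays. The groups of SYVN1 did not overlap, the difference was 0.30 with a standard error of 0.11 (limma, adjusted p = 0.241), and its other detected probe differed by 0.31. EDEM1, which marks glycoproteins for disposal, differed by 0.18 with overlapping groups.

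The genes were also grouped by promoter sequence, with motifs chosen when earlier results of these data were known. RefSeq windows (GRCh38.p14) of 300 bases, from 250 before the gene's start to 50 after it, were at hand for 45 of the 50 genes and for 27305 genes in all. The ER stress response element (ERSE), bound by ATF6 with the CCAAT factor NF-Y, was searched on both strands as the letters CCAAT followed by 9 free bases and then by CCACG. It was present in the windows of 6 of the 45 genes (13.3%) and of 22 of the 27305 (0.0806%). The genes were chosen as well-known members of the pathways that these elements serve. The higher shares of ERSE, and of the related elements below, are therefore a description and no independent support. The 7 matches in these 6 genes are shown because they set these 6 genes apart from the other members by sequence, each 5′ to 3′ on the strand of the match, with the fixed letters in capitals.

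XBP1: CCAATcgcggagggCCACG
HSPA5: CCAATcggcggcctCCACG
HSP90B1, distal match: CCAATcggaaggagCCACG
HSP90B1, proximal match: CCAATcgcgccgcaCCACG
CALR: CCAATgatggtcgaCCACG
CANX: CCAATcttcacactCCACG
CRELD2: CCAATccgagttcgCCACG

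The matches began 52 bases before the gene's start in XBP1, 66 in HSPA5, 194 and 89 in HSP90B1, 225 in CALR, 151 in CANX and 80 in CRELD2. All 6 genes were tested and 0 were called. Their differences ran from -0.01 for CANX to 0.32 for XBP1, with 5 of 6 above 0 and a median of 0.14; CRELD2 also lay below 0 without normalization between arrays. The 32 tested stress genes with a window but no ERSE had a median of 0.04. Over the whole array, 13 tested genes had an ERSE match, with a median of 0.13, and those without had a median of 0.0029. The 13 genes include these same 6, and their median is the value of HSPA5, so it is no independent observation. The whole windows of HSPA5, at chr9:125241294-125241593 on the minus strand of the genome, and XBP1, at chr22:28800520-28800819 on the minus strand, follow on the strand of the gene, with the whole ERSE match in capitals.

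HSPA5 promoter: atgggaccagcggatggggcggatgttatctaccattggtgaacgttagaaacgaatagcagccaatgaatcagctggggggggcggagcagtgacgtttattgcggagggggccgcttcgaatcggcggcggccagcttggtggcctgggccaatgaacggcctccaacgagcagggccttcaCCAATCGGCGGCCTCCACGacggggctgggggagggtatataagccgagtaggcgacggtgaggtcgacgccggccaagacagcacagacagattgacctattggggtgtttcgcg
XBP1 promoter: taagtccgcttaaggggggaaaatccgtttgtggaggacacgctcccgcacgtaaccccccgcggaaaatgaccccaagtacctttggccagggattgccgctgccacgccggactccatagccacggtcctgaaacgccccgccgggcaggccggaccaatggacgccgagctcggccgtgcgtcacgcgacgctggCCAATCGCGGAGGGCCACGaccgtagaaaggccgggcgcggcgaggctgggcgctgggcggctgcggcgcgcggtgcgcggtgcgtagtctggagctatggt

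A related element, ERSE-II, was searched as ATTGG, 1 free base and CCACG. It was present in 3 of the 45 windows (6.67%), against 0.0549% of all windows. HERPUD1, one of the 3, was not analysed here, and the other two, HYOU1 and SDF2L1, lay on opposite sides of 0, at -0.42 and 0.31. HYOU1 (chr11:119057156-119057455 on the minus strand) held 2 matches, 185 and 79 bases before its start, and SDF2L1 (chr22:21642052-21642351 on the plus strand) held 1, 188 bases before its start. The window of HYOU1 also held TGACGTG, a letter string bound by XBP1 and ATF6, which overlapped the distal ERSE-II match. Both windows are shown because genes with the same element differed in sign, with the matches of ERSE-II and TGACGTG in capitals.

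HYOU1 promoter: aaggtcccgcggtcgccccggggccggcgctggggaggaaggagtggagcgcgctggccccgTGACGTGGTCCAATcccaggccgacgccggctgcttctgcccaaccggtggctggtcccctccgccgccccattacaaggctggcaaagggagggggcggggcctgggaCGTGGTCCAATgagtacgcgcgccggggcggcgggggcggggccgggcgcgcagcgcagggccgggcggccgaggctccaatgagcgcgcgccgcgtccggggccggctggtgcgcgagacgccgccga
SDF2L1 promoter: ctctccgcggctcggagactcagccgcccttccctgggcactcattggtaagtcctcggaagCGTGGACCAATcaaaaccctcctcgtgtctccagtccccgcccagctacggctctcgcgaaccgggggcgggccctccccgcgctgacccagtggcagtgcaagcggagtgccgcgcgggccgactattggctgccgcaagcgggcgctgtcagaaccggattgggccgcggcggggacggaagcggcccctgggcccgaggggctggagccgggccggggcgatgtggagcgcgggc

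For ATF4 the search used TGATGNAA, the core of the element bound by ATF4 with C/EBP factors, and its longer form TGATGNAAT. The core was present in 7 of the 45 windows (15.6%), against 3.67% of all windows, and the longer form in 0 of 45, against 1.02%. The 4 tested genes with the core were ASNS (0.12), SLC3A2 (0.07), AARS1 (-0.03) and ATF3 (-0.39), with a median of 0.02, and it was also found for PPP1R15B, CHAC1 and HERPUD1. ASNS (chr7:97872359-97872658 on the minus strand) held the core 68 bases before its start and ATF3 (chr1:212565157-212565456 on the plus strand) 191 bases before it. Their windows are shown with the core in capitals, as the highest and lowest differences of these 4 genes.

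ASNS promoter: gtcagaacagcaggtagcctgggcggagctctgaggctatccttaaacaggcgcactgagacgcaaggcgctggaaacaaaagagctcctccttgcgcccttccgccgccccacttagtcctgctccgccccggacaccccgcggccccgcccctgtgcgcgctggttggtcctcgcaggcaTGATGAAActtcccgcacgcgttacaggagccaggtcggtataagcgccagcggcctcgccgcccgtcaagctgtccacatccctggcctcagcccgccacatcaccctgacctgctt
ATF3 promoter: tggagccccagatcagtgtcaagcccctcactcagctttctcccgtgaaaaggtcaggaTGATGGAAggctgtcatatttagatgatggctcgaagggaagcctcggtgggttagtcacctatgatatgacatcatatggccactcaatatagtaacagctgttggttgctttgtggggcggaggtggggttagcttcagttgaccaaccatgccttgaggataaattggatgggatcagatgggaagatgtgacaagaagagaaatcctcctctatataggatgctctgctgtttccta

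Other letter strings were less particular to these windows. CCACG alone, contained in every ERSE and ERSE-II match, was in 30 of 45 windows (66.7%) and in 37.9% of all. TGACGTG was in 1 of 45 (2.22%) and in 2.00% of all. The full cAMP response element TGACGTCA was also in 1 of 45, that of PPP1R15A, and in 1.98% of all, and a retinoic acid response element of AGGTCA, 5 free bases and AGGTCA (DR5) was in 0 of 45 and in 1 of all 27305 windows. A match is a description of the letters and not of binding, and a missing match speaks only of this window.

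**Figure D4:**
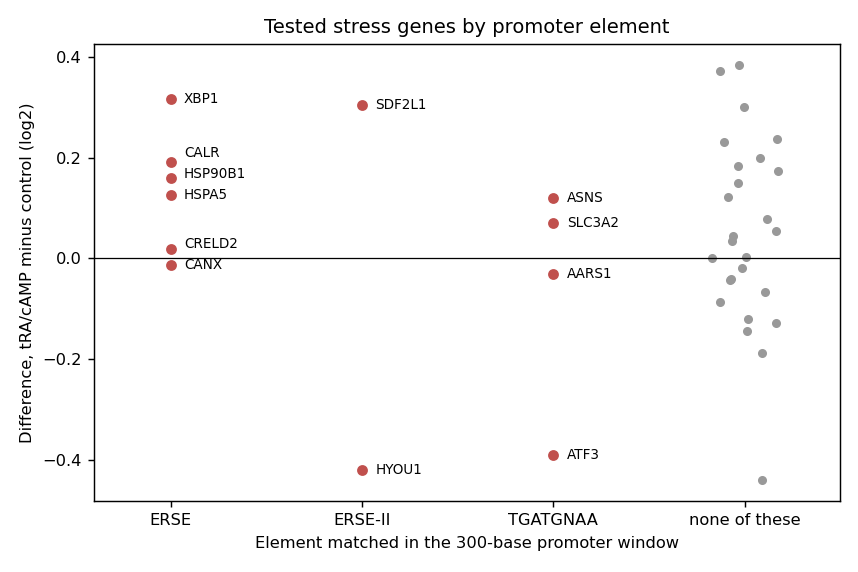
Difference in log2 intensity, tRA/cAMP minus control (y axis), of each tested stress gene with a promoter window, by the element matched in the window (x axis). Genes with ERSE range from -0.01 (CANX) to 0.32 (XBP1), and the pair with ERSE-II lies at 0.31 (SDF2L1) and -0.42 (HYOU1).

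A further 9 genes were too dim to test. ERN1, PPP1R15B, SLC7A11, DNAJC3 and PDIA3 were detected on no array. NUPR1 was detected on 1 tRA/cAMP array and 0 control arrays, CHAC1 on 0 tRA/cAMP arrays and 1 control array, SESN2 on 1 array of each group, and SEL1L on 2 tRA/cAMP arrays and 0 control arrays. CHAC1, which degrades glutathione and is among the genes that ATF4 and CHOP raise most, had log2 intensities of 6.01, 6.32 and 6.98 on the tRA/cAMP arrays and 7.56, 6.39 and 7.44 on the control arrays, which overlap. PPP1R15B, the constitutive counterpart of PPP1R15A, had 6.98, 7.03 and 6.63 on the tRA/cAMP arrays and 6.40, 6.55 and 6.49 on the control arrays, all below detection. In a fit without the filter, 0 of these 9 passed the threshold, and PPP1R15B had an unadjusted p of 0.0215 (limma, adjusted p = 0.356). Probes below background say little of the transcript, since they give only a bound.

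A second probe detected on all arrays was at hand for 9 of the tested genes, and it had the sign of the first for 5 of them. The genes of opposite sign were ASNS, ATF4, CANX and WARS1, whose values lay within 0.12 of 0 on both probes. Among these 9 pairs of probes the largest gap was 0.22, for XBP1. The dim ATF4 probe, detected on 0 control arrays, lay further from its gene's first probe, at 0.73 against 0.05, with control values below detection.

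Other genes of the same pathways were read from lists of their own, and gave 1 called gene. Over all tested genes the share called was 2.53%. At that share lists of this size hold few calls or none, so a count of 0 does not set a list apart. Of 24 further tested ATF4 and amino acid response genes, 0 rose and 0 fell, with a median of -0.06, and of 29 further ER folding and quality control genes 0 rose and 0 fell, with a median of 0.02. The 15 tested genes of eIF2, its kinases, phosphatase and exchange factor held 0 calls (median 0.09), the 12 cytosolic heat shock genes 0 (median 0.13) and the 11 mitochondrial stress genes 0 (median -0.00098). At an unadjusted p under 0.05 in limma these lists held 1 of 24, 2 of 29, 0 of 15, 3 of 12 and 0 of 11 genes, against 14.2% of all tested genes. The oxidative stress list held 1 higher and 2 lower genes at that level. In the oxidative stress list, HMOX1, which encodes heme oxygenase and is raised by oxidants, fell 2.01-fold, and the 10 other tested genes were not called. HMOX1 had a log2 intensity of 8.03 ± 0.07 in tRA/cAMP cells and 9.04 ± 0.23 in control cells (SD, n = 3 each; limma, adjusted p = 0.00333).

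**Figure D5:**
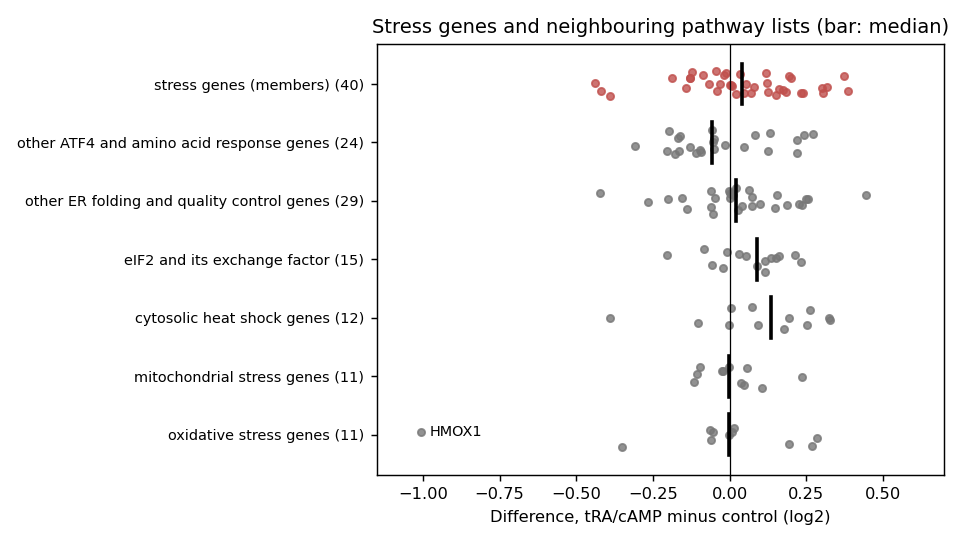
Difference in log2 intensity, tRA/cAMP minus control (x axis), of the 40 stress genes (red) and of the tested genes of 6 other lists (grey), 1 point a gene and a bar at the median, with the number of genes after each name. The medians lie between -0.06 and 0.13, and HMOX1 at -1.01 is the called gene.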

How the data were processed

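Total RNA of 3 tRA/cAMP and 3 control samples was measured on Illumina bead arrays. The deposited intensity values are average bead signals, linear and without normalization. The submitters' processing notes name BeadStudio, without a version. The deposited detection p-values, per the file headers, rank a probe against the array's negative controls. A second deposited table, of intensity values with the same distribution in each column (medians 250.12 to 250.22, processing not given), was an alternative only.

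The limma function neqc (limma 3.58.1, R 4.3.3) processed the signals (normexp background whose negative-control moments came from the detection p-values, an offset of 16, quantile normalization and log2). Symbols came from the platform annotation, updated by gene number (28098 probes with 1 gene, 13 with several, 20692 unnamed). A gene was tested where its brightest probe had a detection p under 0.01 on all 3 arrays of a group. All 9942 genes were fitted together with lmFit and eBayes, without covariates, with Benjamini-Hochberg adjustment over all of them, and intervals are 95% intervals from that fit. The method was tested on simulated data. Precision is limited by the 3 arrays per group. All arrays lay on 1 chip, in 1 block of positions per group, and an effect of position cannot be told apart from treatment. The set chosen for full description held the genes with an unadjusted p under 0.05 and, per role, the brightest and the one with the largest difference. The text departs from this set. It also gives each array for some of the rest, such as EIF2AK3 and HSPA5. For some genes of the set, such as AARS1 and PHGDH, it gives only the difference. The members, lists and motifs were chosen with earlier results of these data known. Same-numbered arrays did not deviate together (correlations 0.06, -0.05 and -0.04), so numbers were not used as pairs. Plots used matplotlib 3.10.9 in Python 3.11.15.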

Additional observations from a re-analysis of the deposited data

How the results depend on the processing

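No stress gene passed the threshold in any of 18 alternatives to the processing in limma; the smallest adjusted p was 0.0645, for ATF3 with a variance trend and robust fit. Counts at an unadjusted p under 0.05 were 3 to 6 higher and 2 to 3 lower, except that without normalization between arrays 0 were higher (43 of all genes rose), and that leaving out single arrays gave 2 to 5 higher (2 without control replicate 1 or tRA/cAMP replicate 2) and 1 to 3 lower (1 without control replicate 3). Without normalization the median of all genes was -0.10 and that of the stress genes -0.066, and 9 of the 40 stress genes turned sign. Of the set chosen for full description these were ATF4 (-0.067), PHGDH (-0.043) and SLC3A2 (-0.030), and of the others EIF2AK3, ATF5, CEBPB, TRIB3, PSPH and CRELD2. Leaving out single arrays, the median of the stress genes was 0.024 (without control replicate 1) to 0.076 (without tRA/cAMP replicate 1), and 13 of the 40 turned sign. From the set chosen for full description these were AARS1 (-0.060 to 0.00821), EIF2AK4 (-0.344 to 0.039), GARS1 (-0.173 to 0.097) and SLC3A2 (-0.073 to 0.188). The others were EIF2AK3, ATF5, CEBPB, TRIB3, PSPH, WARS1, CANX, CRELD2 and ERO1A. Under the other alternatives EIF2AK3, WARS1 and CANX turned sign. Over all genes, 53 rose and 77 fell with no filter and 89 fell with detection required on all 6 arrays, against 108 and 144, and 52 to 83 rose and 85 to 112 fell without single arrays, in fits with fewer arrays (52 and 85 without control replicate 1, 60 and 94 without control replicate 2, 74 and 93 without tRA/cAMP replicate 1, 58 and 85 without tRA/cAMP replicate 2). The heat shock list gave 1 lower gene with a variance trend and robust fit. With the replicate number as a block, 83 genes rose and 110 fell, 0 stress genes were called, 6 had an unadjusted p under 0.05, and the call of HMOX1 held. HMOX1 kept its direction and call in all 18 alternatives. Slide as a block could not be fitted, since all arrays lay on 1 chip. Signal over background limits the 9 dim genes.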
